A study of Homo sapiens with 8 samples.

Results

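The promoters described here belong to 10 genes of glycolysis (HK1, HK2, GPI, PFKP, ALDOA, TPI1, GAPDH, PGK1, ENO1 and PKM), out of 20136 protein coding genes whose promoters were read in the same way. The genes were taken for their place in the pathway, with earlier results of these data known. They do not hold every enzyme of the pathway, and 18 other glycolytic enzymes and isoenzymes were counted apart. GAPDH is among the 10 because its promoter was the negative control when the study checked FLI1 binding by ChIP-qPCR. FLI1 binding was mapped by ChIP-Seq in 2 established lymphoma cell lines of germinal center B-cell (GCB) origin, OCI-Ly1 and VAL. Each line has 2 FLI1 libraries, made with the rabbit polyclonal antibody ab-15289, and 2 samples of input DNA, and the labels give no treatment. By the study's text OCI-Ly1 bears a BCL2 translocation and VAL has MYC translocated as well as BCL2. A replicate here pools the DNA of several parallel immunoprecipitations from 1 line, so it says nothing of differences between donors. OCI-Ly1 replicate 1 was not used, since 33 of its 37 listed intervals exceed 1 Mb. The other libraries are written OCI-Ly1 R2, VAL R1 and VAL R2 for their replicate numbers.

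Glycolysis turns glucose into pyruvate in the cytosol and yields ATP and NADH. Its enzymes are made in nearly all cells, their promoters are rich in CpG, and the pathway is known to be raised in dividing B cells and lymphoma cells. FLI1 is a transcription factor of the ETS family, whose members recognize DNA with a GGAA core, with high affinity where the core is preceded by CC.

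For each gene, the listed peaks centred within 3 kb of any of its transcription start sites (TSS) in GENCODE on GRCh37 were taken, and the one with the highest -log10 q is given. The q is the caller's adjusted p-value of the peak against a local background, and whether that background came from the FLI1 library or from input DNA is not given in the sources used here. Peaks reaching a -log10 q of 3 are called passing. That is the level of the FDR of 0.001 that the paper's methods name for HOMER. The caller of the lists used here is not given, so the passing peaks are not the paper's own peak set. The fold enrichment is the pileup at the summit over that local background, each with 1 added, so it is smaller than the plain ratio. Fold and p-value together fix the number of reads at a summit, which was solved for each peak. The passing peaks numbered 5354 in OCI-Ly1 R2, 973 in VAL R1 and 6474 in VAL R2, with a median of 8, 17 and 8 reads at the summit. Since a -log10 q depends on depth and background, it was ranked within a library and not compared as an amount between libraries. With 1 usable library in OCI-Ly1, no difference between the lines could be tested.

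CCGGAAA or CCGGAAG, the preferred FLI1 core, was sought on either strand and counted where all its bases lay within 50 bp of a summit. GPI in OCI-Ly1 R2 has a core centred 49 bp from its passing summit, which crosses that limit and was not counted. The lines show GRCh37 sequence with this core in capitals for the sites of ALDOA, PFKP, PGK1 and ENO1 where it was counted.
ALDOA, chr16:30076657-30076681, plus strand: ccgcgaagaCCGGAAGctggggcgg
PFKP, chr10:3110602-3110626, minus strand: tgtcacgagCCGGAAGgcgacagca
PGK1 upstream TSS in VAL R2, chrX:77166080-77166104, minus strand: atgcccctgCCGGAAGcagggccgc
PGK1 upstream TSS in OCI-Ly1 R2, chrX:77166099-77166123, plus strand: gggcatcacCCGGAAGtgggggtag
ENO1, chr1:8938865-8938889, plus strand: cctcacctcCCGGAAAggggtggga

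The 3 passing peaks at GAPDH had no such core. The lines below give the DNA centred on the strongest summit in each library, where no GGAA lay on either strand within 50 bp or 100 bp, and the weaker peak of VAL R2, whose GGAA is in capitals.
GAPDH in VAL R2, chr12:6643850-6643874, plus strand: ttgcaggggcgggcggaggacgtga
GAPDH in OCI-Ly1 R2, chr12:6643785-6643809, plus strand: ggcaggggcgggcgcaggccggatg
GAPDH, weaker peak of VAL R2, chr12:6643086-6643110, plus strand: atggggagggGGAAgtgggggctgg

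In OCI-Ly1 R2, 5 of the 10 genes (GPI, PFKP, ALDOA, GAPDH and PGK1) had a promoter peak that passed, as did 19% of all protein coding genes. In VAL R2 there were 6 (ALDOA, TPI1, GAPDH, PGK1, ENO1 and PKM) against 20.9% of all protein coding genes. None passed in VAL R1, where 3.14% of all genes did. ALDOA, GAPDH and PGK1 were called in both lines, a state shared by 12.6% of protein coding genes, while HK1 and HK2 were called in neither. In either line 8 of the 10 were called, against 27.4% of all genes. The 10 genes have 3 to 25 annotated TSS each, and the median over protein coding genes is 5, so all but HK2 had more places to be counted than the median gene. With the TSS of the Ensembl canonical transcript alone, the counts in OCI-Ly1 R2, VAL R1 and VAL R2 were 5, 0 and 5, against 16.5%, 2.61% and 17.8% of protein coding genes, with 7 in either line (23.5%) and 3 in both (10.9%). A limit of 1 kb gave the same counts, 5, 0 and 5, with 7 in either line and 3 in both, against 17.3%, 2.83%, 18.7%, 24.6% and 11.5%. With each peak given to its closest TSS alone they were 5, 0 and 4, with 6 in either line and 3 in both, against 14%, 2.22%, 15.5%, 21.7% and 8.15%. The genes called in both lines were thus 3 of 10 under each of these promoter rules.

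**Figure D1:**
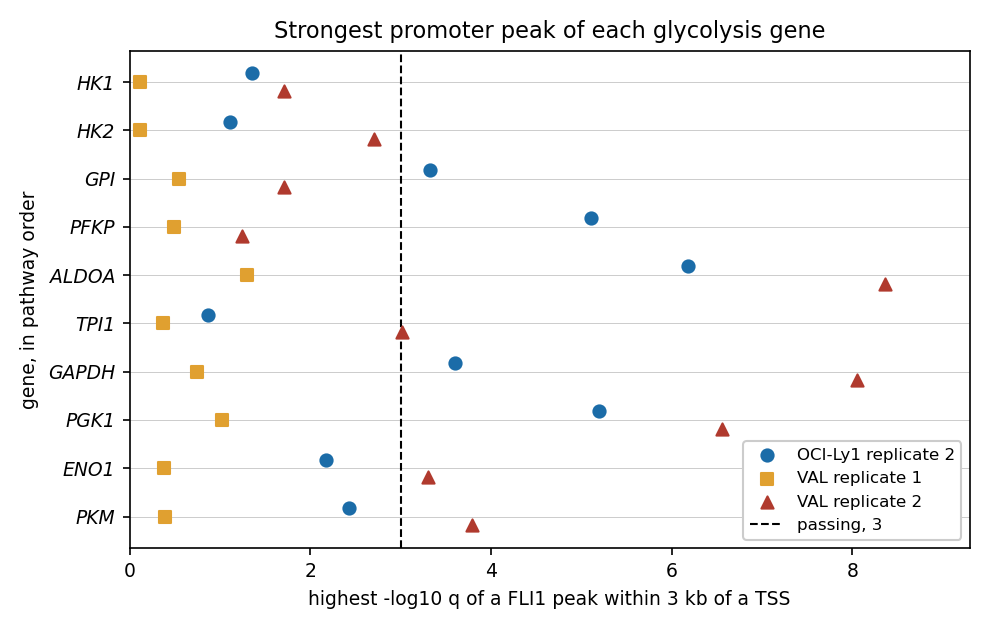
Highest -log10 q of a FLI1 peak within 3 kb of a TSS (horizontal axis) for the 10 glycolysis genes in pathway order (vertical axis), with a circle for OCI-Ly1 R2, a square for VAL R1 and a triangle for VAL R2, and the passing value of 3 as a dashed line. All squares lie left of the line, between 0.118 and 1.3, and ALDOA, GAPDH and PGK1 have both other marks right of it.

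The sites were of middling strength. At a -log10 q of at least 5, 3 of the 10 were left in OCI-Ly1 R2, 0 in VAL R1 and 3 in VAL R2, with 4 in either line and 2 in both, against 11.9%, 1.79%, 12.2%, 16.6% and 7.59% of protein coding genes. The 1000 peaks with the highest -log10 q of each library reached none of the 10, while they reached 5.05%, 3.24% and 4.55% of protein coding genes, 7.67% in either line and 3.07% in both. The median of the highest -log10 q over the 10 genes was 2.88 in OCI-Ly1 R2, 0.445 in VAL R1 and 3.16 in VAL R2, beside 1.22, 0.183 and 1.64 over all protein coding genes. The lowest passing value was that of TPI1 in VAL R2, 3.01, and the highest value that did not pass was that of HK2 in the same library, 2.70. In VAL R1 the values ran from 0.118 to 1.3 where the 75th and 90th percentiles of all protein coding genes were 0.495 and 1.07.

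**Figure D2:**
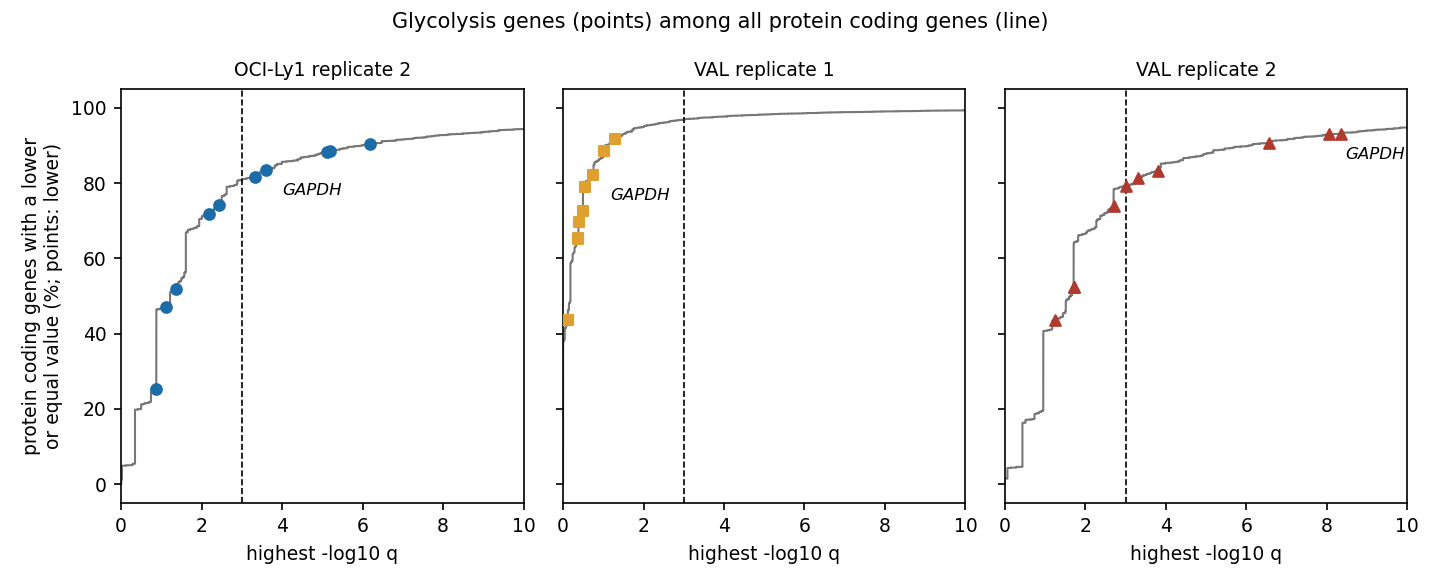
Share of all 20136 protein coding genes at or below each highest -log10 q (grey line, percent) in the 3 libraries, with the 10 glycolysis genes as points and the passing value of 3 as a dashed line. GAPDH lies at the 83.4th percentile in OCI-Ly1 R2, the 82.2nd in VAL R1 and the 92.9th in VAL R2.

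GAPDH, at chr12:6643678-6647540 on the plus strand, encodes the enzyme that oxidizes glyceraldehyde 3-phosphate and is widely used as a reference gene. Its highest -log10 q was 3.60 in OCI-Ly1 R2, 0.749 in VAL R1 and 8.05 in VAL R2. The control promoter thus carried a passing peak in both lines, and did not in VAL R1. The fold enrichment at these peaks was 5.38, 2.74 and 7.89. The summits rested on 8 reads (exact Poisson 95% interval 3.45 to 15.8), 13 reads (6.92 to 22.2) and 11 reads (5.49 to 19.7), intervals that cover counting error only. The 13 reads of VAL R1, the most of the 3, stood over an inferred local background of 4.10 reads, against 0.672 in OCI-Ly1 R2 and 0.521 in VAL R2. The commonest background of passing peaks was 0.526 reads in VAL R1 and 0.283 and 0.278 in the other libraries.

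The passing peaks of GAPDH were broad and lay over the start of the gene. The peak of OCI-Ly1 R2 spanned 1541 bp (chr12:6643143-6644683) and the stronger peak of VAL R2 spanned 1465 bp (chr12:6643501-6644965), where the median passing peak was 625 bp and 692.5 bp wide. Only 5.57% and 10.8% of the passing peaks of those libraries were wider. Their summits were 65 bp apart, at 114 bp and 179 bp downstream of the canonical TSS, in an intron of the canonical transcript. Among all passing peaks, 82.1% had a higher -log10 q than GAPDH in OCI-Ly1 R2 and 24% in VAL R2. The nearest gene besides GAPDH was GAPDH-DT, a divergent non-coding transcript, and no other protein coding gene has a TSS within 3 kb of the centres of these peaks.

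VAL R2 held more passing peaks around GAPDH. A weaker one spanned chr12:6642733-6643266 with a -log10 q of 3.31, a fold of 5.03 and 9 reads, its summit at -582 bp and its centre nearest to GAPDH-DT. Another lay downstream of the gene, at chr12:6648880-6650026, with a -log10 q of 6.87, a fold of 7.28 and 10 reads. Its summit was 6186 bp past the GAPDH TSS, inside IFFO1, and it was not counted as a GAPDH promoter peak. Within 10 kb of the TSS, 14 peaks of OCI-Ly1 R2, 5 of VAL R1 and 14 of VAL R2 were listed, of which 1, 0 and 3 passed.

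**Figure D3:**
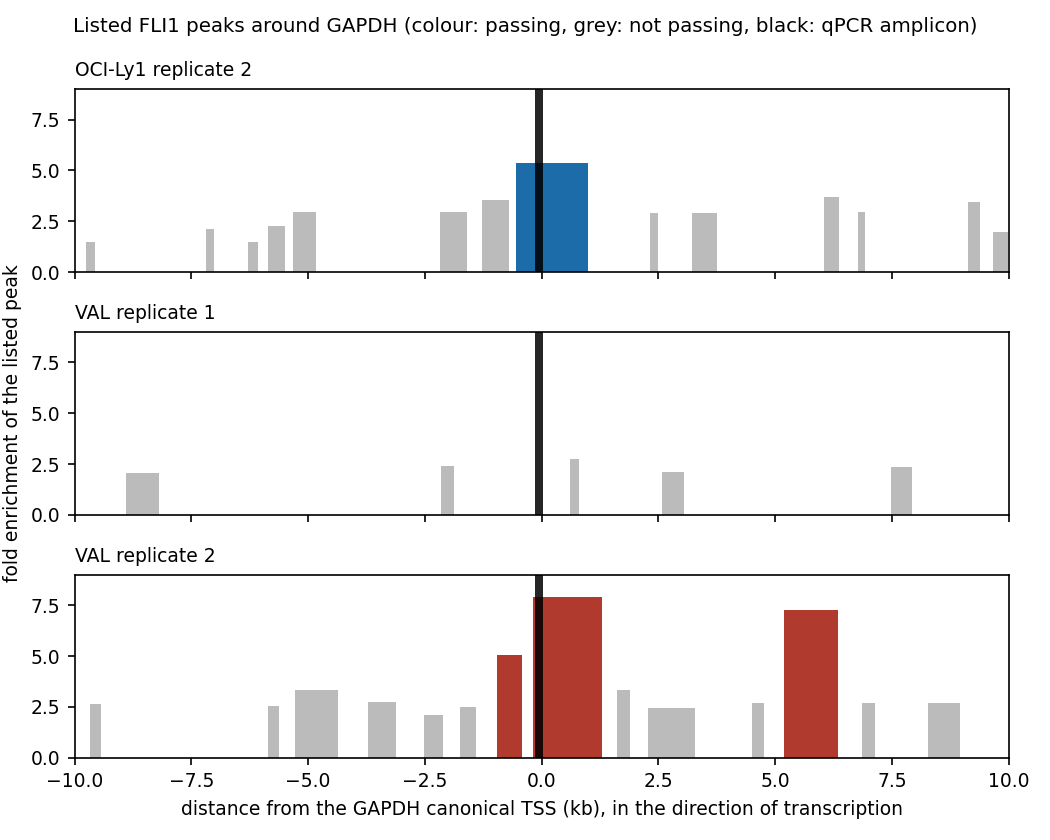
Listed FLI1 peaks within 10 kb of the GAPDH canonical TSS, by distance in kb (horizontal axis) and fold enrichment (vertical axis), in 1 panel per library. Bars span each peak, coloured where the peak passed and grey where it did not, and the black band is the ChIP-qPCR amplicon. The band is covered by a passing peak of fold 5.38 in OCI-Ly1 R2 and 7.89 in VAL R2, and by no listed peak in VAL R1.

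The amplicon of the control qPCR was placed on the genome to see whether it lay under these peaks. The GAPDH primer pair matched GRCh37 at 1 place, chr12:6643539-6643704, which gives a product of 166 bp from -144 to 21 bp of the canonical TSS. All 166 bp lay inside the passing peak of OCI-Ly1 R2 and inside the stronger peak of VAL R2. The summits of those peaks were 93 bp and 158 bp beyond the end of the amplicon. No listed peak of VAL R1 touched it. The qPCR values themselves are not part of the peak lists and were not analysed here.

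The promoters that the study tested as FLI1 targets in the same assay gave values on both sides of the control. AATF, an apoptosis regulator, had a -log10 q of 4.94, 0.757 and 9.13 in OCI-Ly1 R2, VAL R1 and VAL R2, where GAPDH had 3.60, 0.749 and 8.05. DDX21, an RNA helicase, had 12.4 and 3.27 in OCI-Ly1 R2 and VAL R2 and no listed peak in VAL R1. WEE1, a kinase that holds back mitosis, had 5.10, 1.46 and 3.27. The study's text names WEE1 with these promoters, but its list of ChIP-qPCR primers does not hold it. RASGRP1, a RAS activator, had 1.94, 0.576 and 4.34, and ASB2, of a ubiquitin ligase, had 1.42 and 3.27 in OCI-Ly1 R2 and VAL R2 with no listed peak in VAL R1. GAPDH was thus above RASGRP1 and ASB2 in OCI-Ly1 R2 and above all but AATF in VAL R2. These ranks are of peaks within 3 kb of a TSS, not of the amplicons. Over the 3 libraries the protein coding genes nearest to GAPDH in the highest -log10 q were PHIP (3.59, 0.501 and 7.90), CFAP57 (3.38, 0.556 and 7.99) and CHD1L (3.82, 0.382 and 7.90), at Euclidean distances of 0.289, 0.296 and 0.453.

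The first steps of the pathway had few calls. HK1 and HK2 encode hexokinases, which trap glucose in the cell as its 6-phosphate. HK1 had a highest -log10 q of 1.36, 0.118 and 1.71 in OCI-Ly1 R2, VAL R1 and VAL R2, on 4, 6 and 4 reads. HK2 had 1.12, 0.118 and 2.70, on 5, 5 and 6 reads. Neither passed although HK1, with 25 TSS, offered the most places. The HK2 peak of VAL R2 had a fold of 4.83 and its summit at 1121 bp past the canonical TSS and 78 bp past an alternative TSS. Outside the promoters, the only passing peaks within the bodies of the 10 genes were also theirs, 1 in HK1 (-log10 q 3.27) and 1 in HK2 (3.003), both in VAL R2.

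GPI, which converts glucose 6-phosphate to fructose 6-phosphate, had a -log10 q of 3.33 in OCI-Ly1 R2, 0.543 in VAL R1 and 1.71 in VAL R2. It passed in OCI-Ly1 R2, where 93.9% of passing peaks were stronger. The summit in VAL R2 fell on the same base as in OCI-Ly1 R2, position 34855940 of chromosome 19 at -161 bp of the canonical TSS, but rested on 4 reads against 7. VAL R1 had no listed peak there, and its nearest one within the promoter windows of GPI was 30721 bp away. The position was thus the same in OCI-Ly1 R2 and VAL R2, while the call was not.

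PFKP encodes the platelet form of phosphofructokinase, which commits the sugar to glycolysis. Its highest -log10 q was 5.10 in OCI-Ly1 R2, 0.495 in VAL R1 and 1.25 in VAL R2. The OCI-Ly1 summit, with 7 reads and a fold of 6.24, was 3 bp from the CCGGAAG printed above and 871 bp past the canonical TSS, in an intron and at -67 bp of an alternative TSS. At this site VAL R2 had a listed peak 49 bp away with a -log10 q of 0.965. A difference between the lines at PFKP has no replicate in OCI-Ly1 to be tested with.

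ALDOA, the aldolase of muscle and most blood cells, splits fructose 1,6-bisphosphate and had the highest values of the 10 genes. Its -log10 q was 6.18 in OCI-Ly1 R2, 1.3 in VAL R1 and 8.36 in VAL R2, the 90.4th, 91.6th and 93.1st percentiles of protein coding genes. The fold enrichment was 6.93, 3.45 and 8.06 on 9, 12 and 11 reads. The passing summits of OCI-Ly1 R2 and VAL R2 were 21 bp apart, at -445 bp and -424 bp of the canonical TSS. The printed CCGGAAG lay 33 bp and 12 bp from them, and the peak of VAL R1 had its summit 88 bp and 67 bp away. ALDOA was the only gene of the 10 whose passing summits in 2 libraries were within 50 bp of each other.

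TPI1, which interconverts the products of aldolase, had a -log10 q of 0.873, 0.370 and 3.01 in OCI-Ly1 R2, VAL R1 and VAL R2. The passing peak of VAL R2 lay at chr12:6980897-6983032, past the end of the gene, and was centred 484 bp from a TSS of SPSB2 and also within 3 kb of a TSS of LRRC23. With the TSS of protein coding transcripts alone, or with a limit of 1 kb, the highest value of TPI1 in VAL R2 was 1.73. The call of TPI1 therefore rests on a peak nearer to its neighbours' start sites than to its own.

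PGK1, on the X chromosome, encodes the kinase that makes the first ATP of the pathway. Its highest -log10 q was 5.19 in OCI-Ly1 R2, 1.02 in VAL R1 and 6.56 in VAL R2, from different promoters. The canonical promoter had passing peaks of 5.19 in OCI-Ly1 R2 and 3.51 in VAL R2, with summits 113 bp apart at -246 bp and -133 bp. The other pair, 3.82 in OCI-Ly1 R2 and 6.56 in VAL R2 with summits 82 bp apart, lay at a far-upstream annotated TSS at position 77166236 that is shared with the promoter of ATP7A, a copper transporter, and the pseudogene C4orf46P2. Both upstream peaks had a CCGGAAG, the closest at 43 bp and 20 bp from the summits, and both canonical peaks had none within 50 bp. The VAL R2 upstream peak had 2 matches within 50 bp. The farther one is the site printed for OCI-Ly1 R2, a CCGGAAGT that lay 40 bp from the VAL R2 summit. The OCI-Ly1 peak at the canonical promoter had a GGAA at 7 bp.

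ENO1 encodes enolase and PKM the pyruvate kinase of most proliferating cells, the last steps of the pathway. ENO1 had a -log10 q of 2.18, 0.382 and 3.31 in OCI-Ly1 R2, VAL R1 and VAL R2, on 7, 8 and 6 reads. The summits of OCI-Ly1 R2 and VAL R1 were 98 bp and 59 bp from that of VAL R2, whose CCGGAAA lay 40 bp off. The centre of that peak was 42 bp from a TSS of the antisense gene ENO1-AS1 and 73 bp from one of ENO1. PKM had 2.43, 0.394 and 3.79 on 6, 7 and 7 reads. The value of PKM in OCI-Ly1 R2 came from an alternative TSS near GRAMD2A, and at the main promoter that library had 2.42, with a summit 93 bp from the passing one of VAL R2. Both genes had summits within 100 bp of that of VAL R2 in the other libraries and passed in VAL R2 alone.

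**Figure D4:**
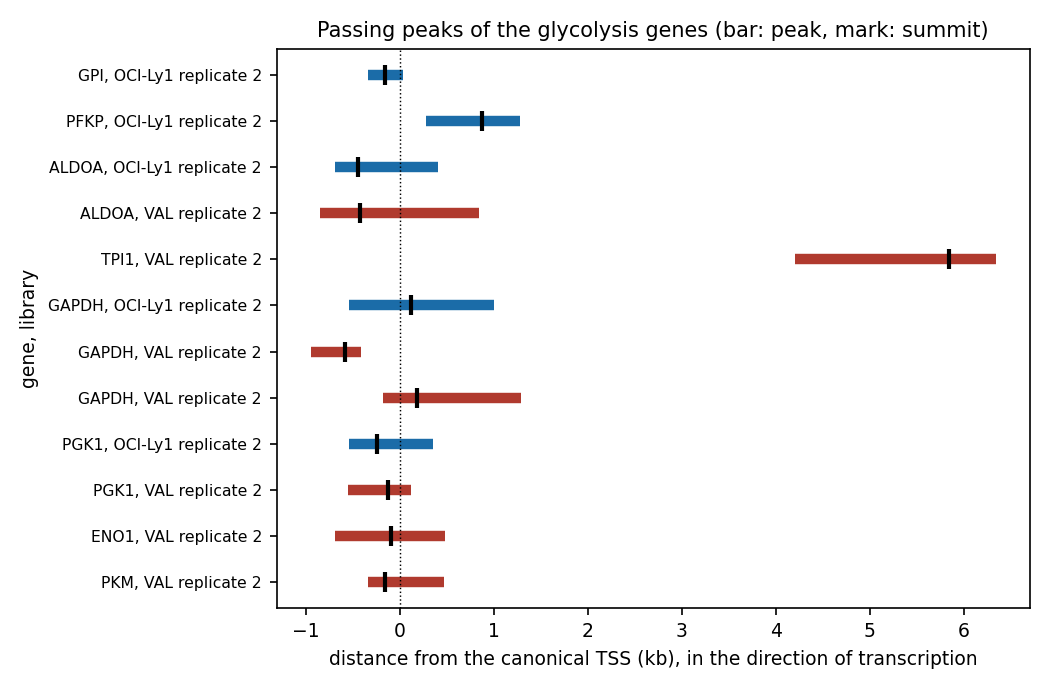
Passing peaks of the glycolysis genes (bars) and their summits (black marks) by distance from the canonical TSS in kb (horizontal axis), 1 line per peak with its gene and library, blue for OCI-Ly1 R2 and red for VAL R2. The 2 peaks at the far-upstream TSS of PGK1 are left out, and of the 12 shown, all but the TPI1 peak have summits between -582 bp and 871 bp.

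The passing peaks of the 10 genes numbered 6 in OCI-Ly1 R2 and 8 in VAL R2, and 10 of the 14 summits lay upstream of the canonical transcript, 3 in an intron and 1 past the gene's end. CCGGAAA or CCGGAAG lay wholly within 50 bp of the summit in 3 of 6 and 3 of 8. By the same rule 44.7% and 37.7% of all passing promoter peaks of the libraries had it. The GPI peak of OCI-Ly1 R2 was not counted, for the core or for GGAA. Its core and the GGAA within it are centred 49 bp from the summit and cross the limit. GGAA, which includes those cores, was found at 4 of 6 and 6 of 8, against 86.4% and 83.6%. Within 100 bp it was at 5 of 6 and 7 of 8, against 94.7% and 93.7%, and the strongest peak of GAPDH was the exception in each library. Among ALDOA, GAPDH and PGK1, the genes called in both lines, ALDOA and the upstream site of PGK1 had a core in both libraries and GAPDH in neither. A match or its absence describes these letters only.

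In the 501 bp centred on the canonical TSS, GC content ran from 63.3% to 77.2% with a median of 70.4%, beside 64.7% over 19856 protein coding genes, and PGK1 was the one promoter under that value. The median number of CpG was 55.5 beside 40. GGGCGG, the GC box bound by SP1, was in 10 of 10 promoters and in 69.7% of all. ACGTG, the core of the hypoxia response element, was in 6 of 10 and 32.5% of all, and CACGTG, the E-box of MYC, which contains it, in 2 of 10 (ALDOA and ENO1) and 11.0%. CCGGAAA or CCGGAAG was in 3 of 10 (GPI, HK1 and ENO1) and 22.0% of all, and TATAAA was in 1 of 10 (GAPDH) and 11.7%. All motifs were counted on both strands. Whether base composition bears on the peak values was not tested.

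Other genes of glucose metabolism were called in a share near that of all protein coding genes. Of 53 genes (further isoenzymes, transport of glucose and lactate, control of glycolysis, gluconeogenesis and the pentose phosphate pathway), 8 passed in OCI-Ly1 R2, 1 in VAL R1 and 8 in VAL R2, and 13 in either line (24.5%, against 27.4% of all). The highest values were those of PFKM, the muscle phosphofructokinase, with a -log10 q of 46.0, 17.7 and 38.4, in peaks centred 3 to 6 bp from a TSS of SENP1, its divergent neighbour. ENO3, the muscle enolase, had 10.4, 2.19 and 11.8, in peaks centred nearest to PFN1 in OCI-Ly1 R2 and VAL R1 and to ENO3 in VAL R2. By list, 4 of 18 other glycolytic enzymes and isoenzymes, 1 of 7 transport genes (SLC2A1, 3.17 in VAL R2), 3 of 15 control genes (PFKFB3 the highest, 4.91 in VAL R2), 1 of 6 gluconeogenesis genes (PCK2, 3.14 in OCI-Ly1 R2) and 4 of 7 pentose phosphate genes passed in either line. When each peak was given to the closest TSS alone, 0 of the 53 were called in both lines.

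**Figure D5:**
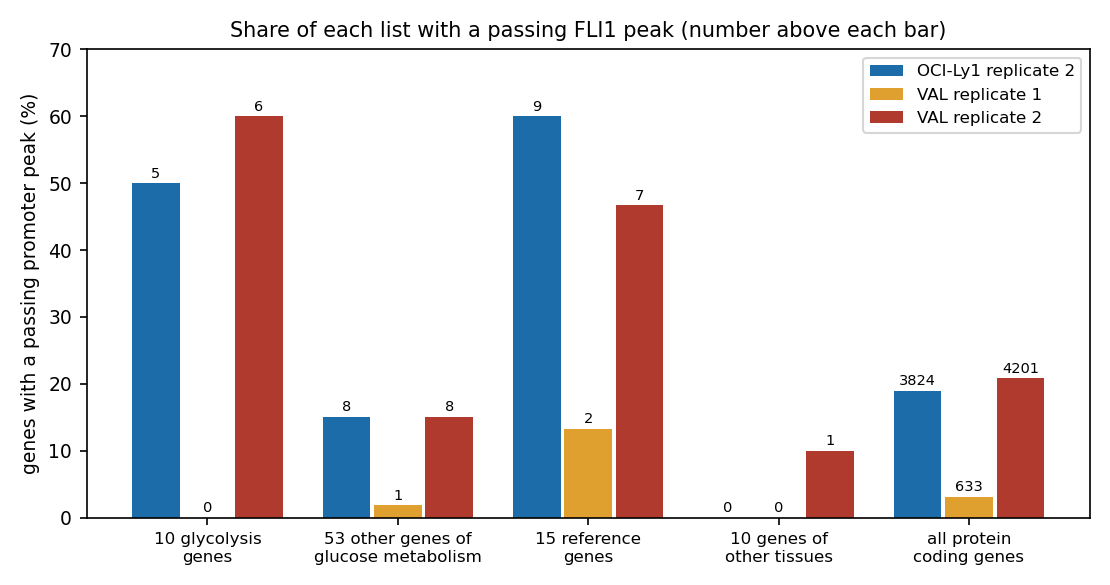
Percent of the genes of each list with a passing promoter peak (vertical axis, from 0) in OCI-Ly1 R2 (blue), VAL R1 (yellow) and VAL R2 (red), with the number of genes above each bar. The 10 glycolysis genes stand at 50%, 0% and 60% and the 15 reference genes at 60%, 13.3% and 46.7%, while all protein coding genes stand at 19%, 3.14% and 20.9%.

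Reference genes from outside the pathway were called in shares of the same order, without a test of the difference. Of 15 genes used as references for expression, chosen outside glycolysis, 9 passed in OCI-Ly1 R2, 2 in VAL R1 and 7 in VAL R2. In either line 11 passed (73.3%), against 27.4% of all protein coding genes. ACTB, the cytoplasmic actin, had a -log10 q of 24, 5.09 and 58.2 and TFRC, the transferrin receptor, had 25.2, 13.9 and 25.5, and both passed in all libraries, which none of the 10 glycolysis genes did. POLR2A had 5.80, 1.6 and 3.65 and TBP had 8.49, 1.06 and 3.27 in peaks centred 20 to 120 bp from a TSS of PSMB1. Of 10 genes active in other tissues, only CFTR passed, in VAL R2, with a -log10 q of 3.79 at 2885 bp from its TSS. GAPDH had a lower value than ACTB and TFRC and a higher one than CFTR in all 3 libraries.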

How the data were processed

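FLI1 ChIP-Seq peak lists of OCI-Ly1 and VAL were read as deposited, 1 list per FLI1 library with no pooling of replicates. The paper's methods name bowtie2, SAMtools filters and HOMER at an FDR of 0.001 on GRCh37, while the submitters' processing notes name BWA and CASAVA 1.4. The lists have the 10-column form of MACS2. Their caller, control and settings are not given in the sources used here. The fold enrichment is a ratio made by the authors' caller from the summit pileup and the local background. It was read here by the MACS2 formula, which adds 1 to both. The -log10 p and -log10 q are the deposited p-value and q-value of each summit, and the highest listed p-value is 0.04995. The score deposited in the lists is 10 times the -log10 p and was not used.

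Members and lists were chosen with earlier results of these data known. All 10 genes matched GENCODE release 44 on GRCh37, and 20136 protein coding genes of chromosomes 1 to 22, X and Y formed the background. Genes named are the 10, the 5 promoters named with the ChIP-qPCR, and genes of each other list that passed in at least 2 libraries or otherwise the highest. The 3 nearest to GAPDH and neighbours that share a passing peak are named too. Some genes under this rule are not reported here. Reads and background were solved from fold and p with the MACS2 formula, and had a solution for 5350 of 5354 (OCI-Ly1 R2), 972 of 973 (VAL R1) and 6473 of 6474 (VAL R2) passing peaks. Total depth per library is unknown. The fewest reads of a passing peak were 6 in OCI-Ly1 R2 and VAL R2 and 8 in VAL R1, and a weaker site could not be called. Primer letters were used only to find the GAPDH amplicon, by exact match to GRCh37. No test was run between groups. Scripts were checked on simulated peaks. Alternatives changed the threshold, promoter rule, libraries, overlap and motif. Software was samtools 1.23.1, pysam 0.24.0 and matplotlib 3.10.9 with scipy 1.17.1, pandas 2.3.3 and numpy 2.4.6 under python 3.11.15.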

Additional observations from a re-analysis of the deposited data

Results flagged for a closer look

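In OCI-Ly1 replicate 1, the library left out of the comparisons, HK2 lies under the only passing interval of the list, with a -log10 q of 3.57 and a fold of 3.0. It was singled out as a signal in data that no comparison used. The interval runs from position 1 to 243041133 of chromosome 2, so it holds every gene of the chromosome and gives no site at HK2. The other 9 glycolysis genes lie under intervals with a -log10 q of 1.06.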

How the results depend on the processing

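No paired analysis was possible because the results come from no test and OCI-Ly1 has 1 usable library. The counts of glycolysis genes with a passing promoter peak stayed within 1.5 times the reported ones in 43 of 58 recomputed values. The 43 include the values of VAL R1 where 0 stayed 0, which have no ratio and which stricter rules could not change. With all listed peaks the count was 10 in each library and in both lines. Under that rule nearly every gene was called in OCI-Ly1 R2 and VAL R2. Of 20136 protein coding genes, 19909, 15085 and 19845 were called in OCI-Ly1 R2, VAL R1 and VAL R2. In either line 20121 were called, and in both 19714. With a -log10 q of at least 5 it was 3 in OCI-Ly1 R2, 3 in VAL R2 and 4 in either line, and with the top 1000 peaks 0 throughout. Without VAL R2, or with a passing peak asked for in both VAL replicates, it was 5 in either line and 0 in both. Without VAL R1 it was 8 and 3, so VAL R2 decides every VAL call of the 10 genes. Of all protein coding genes, 3889 were called in either line and 568 in both without VAL R2. With both VAL replicates required these were 3864 and 551, and without VAL R1 they were 5502 and 2523. For the other genes of glucose metabolism the count in either line was 53 with all listed peaks, 6 at a -log10 q of at least 5, 3 with the top 1000 peaks and 8 without VAL R2 or with both VAL replicates required, and 13 without VAL R1. Reference genes called in either line fell to 6 at a -log10 q of at least 5 and 2 with the top 1000 peaks. Of all protein coding genes, 16.6% and 7.67% were called in either line under those rules. Genes with summits within 50 bp of each other numbered 1 in place of 3. Wholly within 50 bp of the summit, CCGGAAGT was at 1 member peak in each of OCI-Ly1 R2 and VAL R2, and GGAA at 6 in VAL R2. Of 140 single -log10 q values, 134 kept their side of the threshold, and the exceptions are TPI1 in VAL R2 (1.73 under 5 promoter rules) and ENO1 in VAL R2 (1.51 with the closest TSS alone). The GAPDH values at the amplicon did not move when a summit within 250 bp was asked for. The cause of these changes was not tested.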

Other observations

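Pseudogenes named after the glycolysis genes, a set chosen after the data were seen, were looked up in the same lists. Of 83 such pseudogenes, 65 of them of GAPDH, 1 was called in OCI-Ly1 R2, 1 in VAL R1 and 2 in VAL R2 (1.2%, 1.2% and 2.41%), beside 2.20%, 0.488% and 2.54% of 15380 pseudogenes. The gene called in all 3 libraries was TPI1P2, with a -log10 q of 84.2, 10.6 and 19.2 in OCI-Ly1 R2, VAL R1 and VAL R2. Its peaks were centred 3 bp, 15 bp and 107 bp from a TSS of TNPO3, a nuclear import receptor, on chromosome 7. The other, GAPDHP1 on chromosome X, passed in VAL R2 with a -log10 q of 3.69, and had 0.0188 and 1.01 in OCI-Ly1 R2 and VAL R1. The VAL R2 peak was centred 427 bp from a TSS of RN7SL732P, nearer than to GAPDHP1. The values of OCI-Ly1 R2 and VAL R1 came from other peaks that do not overlap it. No other pseudogene of GAPDH passed in any library.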
